A study of Glycine max with 12 samples.

Results

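Of the 55897 genes in the count table of closed soybean flowers, 80 met a rule for less RNA under water deficit at both day temperatures of the experiment. They were picked by their measured levels. A gene belonged to the set when its highest level in water-deficit flowers was no more than its lowest level in watered flowers divided by 1.3, in the comparison without heat and again in the comparison with heat. Its lowest control level had to reach 2 CPM (a gene's reads scaled to a library of 1000000 counted reads), and its highest level under heat alone had to be at least 0.5 times its lowest control level. A stricter ratio of 1.5 gave 25 genes, fewer than the 30 required, so 1.3 was used. The falls with water deficit are therefore how the genes were chosen and are given as a description, with no test.

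The flowers were closed flowers (stages II and III) of soybean, Glycine max cv Magellan, grown in 4 growth chambers, 1 per treatment. Control plants (CT) had a day temperature of 28°C and full watering, plants under water deficit (WD) had 28°C and 30% of the water available for transpiration, plants under heat stress (HS) had 38°C and full watering, and plants under both (WD + HS) had 38°C and 30% of the water. The stresses lasted 10 d and there were 3 biological repeats per treatment, each a pool of 30 to 40 flowers from 8 to 10 plants, so that the spread between libraries is the spread between pools, and the chamber cannot be told apart from the treatment. The 12 libraries held 14049107 to 22415845 counted reads, and each of the 80 genes had at least 35 reads in every CT library, while 9 had a library of under 10 reads in some group. In RNA of whole flowers, fewer cells of a type and less RNA per cell cannot be told apart.

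A growing plant cell enlarges by loosening its wall under turgor. Xyloglucan endotransglucosylases cut and rejoin the xyloglucan chains that tie cellulose microfibrils, arabinogalactan proteins and their fasciclin-like relatives are sugar-rich proteins of the cell surface, and gibberellin-regulated peptides and the phosphate-responsive (EXORDIUM) family are small secreted or wall proteins tied to hormone-driven growth. Water deficit lowers turgor and is known to slow the expansion of young organs. Several of the 80 genes carry such names: 4 fasciclin-like arabinogalactan proteins, 3 arabinogalactan proteins, 4 xyloglucan enzymes and 3 gibberellin-regulated peptides. Descriptions were at hand for 61 of the genes and came from the study's own lists of changed genes, which rest on these same libraries, so a named family is not independent evidence of its direction. The roles below are mostly known from the Arabidopsis gene after which a soybean gene is named.

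The 80 genes together took 0.277 to 0.295% of the reads in the CT libraries and 0.154 to 0.175% in the WD libraries. Their share was 0.255 to 0.266% in HS and 0.121 to 0.126% in WD + HS. The level left in WD, as the mean CPM of the 3 WD libraries over that of the 3 CT libraries, ranged from 25.6% to 72.4% with a median of 48.0%, and the level left in WD + HS relative to HS ranged from 7.67% to 66.3% with a median of 40.2%. At 28°C, 41 genes were left with at most 50% of their level, and at 38°C 58 genes were, 16 of them with at most 25%. The lowest of the 4 group means lay in WD + HS for 64 genes and in WD for the other 16, whereas the highest lay in CT for 46 genes and in HS for 34. In edgeR's quasi-likelihood test across all 38410 genes tested, 62 of the 80 were called lower in WD than in CT (adjusted p under 0.05), beside 0.682% of all genes, and 73 were called lower in WD + HS than in HS, beside 5.94% of all genes. Both calls were made for 59 of the 80. Since the choice of the genes fixed both directions, nothing is read from these counts. The median log2 fold change was -1.03 in WD against CT and -1.27 in WD + HS against HS, beside 0.00 and 0.01 over all genes tested.

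**Figure D1:**
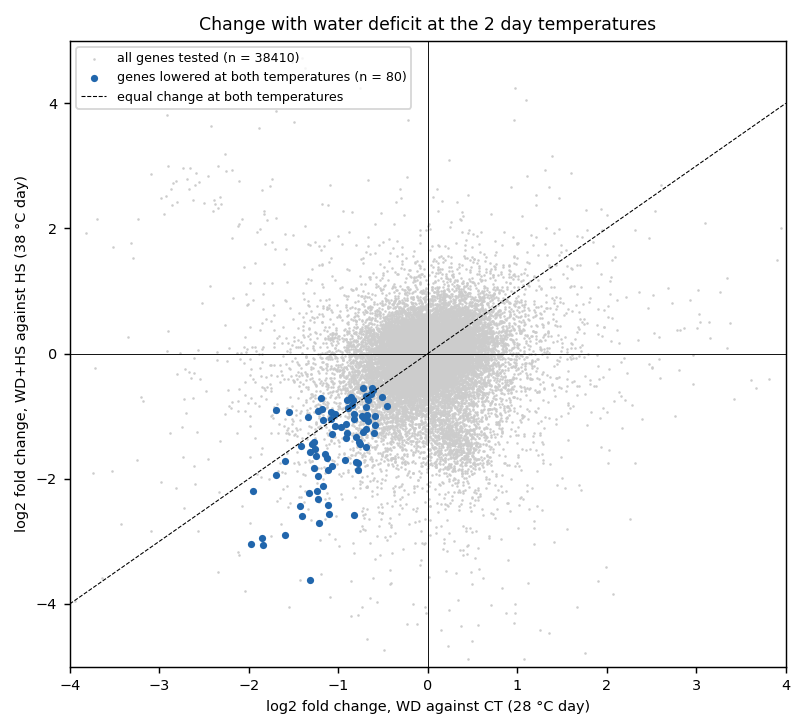
Log2 fold change (edgeR) of WD against CT on the horizontal axis and of WD + HS against HS on the vertical axis, for all 38410 genes tested (grey) and the 80 genes lowered at both temperatures (blue); the dashed line marks an equal change, and 36 genes beyond the axes are not drawn. The blue points fill the lower left corner because they were chosen there, and 61 of them lie below the dashed line.

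Among the arabinogalactan proteins, the gene described as AGP18 was the most abundant. In Arabidopsis, AGP18 is a lysine-rich arabinogalactan protein needed for the female gametophyte. GLYMA_17G164800 (AGP18) was at 97.0, 109 and 101.1 CPM in CT, at 66.5, 59.7 and 65.7 CPM in WD, at 61.6, 64.5 and 62.6 CPM in HS, and at 35.9, 34.7 and 40.0 CPM in WD + HS. WD and HS flowers held about the same level of it, and the WD + HS libraries lay below all others. GLYMA_06G050500, described as AGP15, a short arabinogalactan peptide, was at 24.2, 27.3 and 26.5 CPM in CT and at 8.68, 12.5 and 9.58 CPM in WD. It was at 17.7, 15.5 and 14.4 CPM in HS and at 3.56, 4.21 and 2.23 CPM in WD + HS, so that 39.4% of its level was left at 28°C, 20.98% was left at 38°C and no library of a watered group overlapped one of a dry group. GLYMA_16G153600, described as the related peptide AGP14, was at 15.8, 23.6 and 21.6 CPM in CT, at 8.68, 11.0 and 8.18 CPM in WD, at 17.6, 14.6 and 16.97 CPM in HS, and at 4.17, 4.99 and 4.11 CPM in WD + HS. Its CT and HS libraries overlapped, unlike those of AGP18 and AGP15, which were lower in all 3 HS libraries than in any CT library.

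The 4 fasciclin-like arabinogalactan proteins, which carry fasciclin domains thought to act in adhesion at the cell surface, split into a sparse and an abundant pair. GLYMA_13G293500 (FLA6) was at 16.4, 14.8 and 21.1 CPM in CT, at 5.84, 5.49 and 4.62 CPM in WD, at 13.6, 14.01 and 14.4 CPM in HS, and at 3.19, 3.51 and 3.92 CPM in WD + HS. Only 30.5% and 25.3% of its level was left at the 2 temperatures, and it is one of the 8 genes whose watered and dry libraries stood farthest apart. GLYMA_12G207600 (FLA9) was at 16.5, 14.8 and 19.9 CPM in CT, at 7.05, 8.18 and 5.76 CPM in WD, at 14.2, 15.1 and 11.9 CPM in HS, and at 3.25, 3.65 and 7.004 CPM in WD + HS, where replicate 3 stood above the others. The abundant pair was slightly higher in HS, with HS means 1.20 and 1.17 times the CT means, every HS library above every CT library, and FLA8 among the genes called higher in HS. GLYMA_18G222200 (FLA8) was at 77.7, 87.9 and 82.5 CPM in CT, at 50.1, 52.8 and 51.1 CPM in WD, at 107, 95.1 and 96.3 CPM in HS, and at 63.5, 58.4 and 58.4 CPM in WD + HS. GLYMA_09G267700 (FLA10) was at 84.3, 81.0 and 86.1 CPM in CT, at 54.2, 55.5 and 50.6 CPM in WD, at 101.1, 97.1 and 94.8 CPM in HS, and at 62.2, 64.3 and 56.6 CPM in WD + HS. Both FLA8 and FLA10 kept 60.5% to 63.8% of their level under water deficit at either temperature, and for both the WD libraries were the lowest of the 12.

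Of the xyloglucan enzymes, 2 genes described as XTH9 carried most of the reads. GLYMA_13G304400 (XTH9) was at 122, 149.9 and 172 CPM in CT and at 65.2, 75.02 and 62.1 CPM in WD, while at 38°C it was at 159, 131 and 161 CPM in HS and at 28.1, 27.1 and 26.7 CPM in WD + HS. Heat alone thus left its mean at 102% of CT, whereas 45.5% of the level was left in WD and 18.2% in WD + HS relative to HS. The second XTH9 gene, GLYMA_12G197600, was at 49.5, 61.4 and 72.0 CPM in CT, at 22.6, 29.9 and 22.5 CPM in WD, at 63.2, 61.4 and 70.5 CPM in HS, and at 19.7, 15.9 and 18.1 CPM in WD + HS. GLYMA_08G107300 (XTH16) was at 14.02, 14.5 and 18.2 CPM in CT, at 6.90, 4.68 and 8.31 CPM in WD, at 19.0, 22.6 and 23.6 CPM in HS, and at 3.56, 4.64 and 4.47 CPM in WD + HS. Its 3 HS libraries were above every CT library, and its WD + HS libraries were below every WD library. GLYMA_13G103100, described as xyloglucan endotransglycosylase 6, behaved otherwise with heat: it was at 13.2, 15.3 and 15.05 CPM in CT, at 8.54, 6.46 and 7.91 CPM in WD, at 6.88, 5.27 and 6.70 CPM in HS, and at 3.86, 2.25 and 1.09 CPM in WD + HS. Its HS mean was 43.3% of its CT mean.

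The 3 gibberellin-regulated peptides (small cysteine-rich proteins of the GAST1 family) shared the fall with water deficit and differed in heat. GLYMA_04G179500 was at 64.9, 65.1 and 69.2 CPM in CT, at 48.1, 28.3 and 35.8 CPM in WD, at 35.3, 44.7 and 45.9 CPM in HS, and at 5.52, 7.02 and 7.97 CPM in WD + HS, which was 10.3% of the CT mean. GLYMA_06G185300 was at 56.3, 57.5 and 57.0 CPM in CT, at 34.2, 29.0 and 35.8 CPM in WD, at 53.2, 60.7 and 73.2 CPM in HS, and at 15.9, 16.9 and 21.4 CPM in WD + HS. Its CT and HS libraries overlapped. The third, GLYMA_14G087200, was at 4.89, 4.95 and 4.67 CPM in CT and at 3.13, 2.15 and 2.48 CPM in WD, but at 25.2, 29.0 and 25.3 CPM in HS and at 16.7, 14.6 and 15.1 CPM in WD + HS. Its HS mean was 5.48 times its CT mean, the highest such ratio among the 80 genes, and water deficit still left it at 53.5% of CT and 58.3% of HS. GLYMA_06G102100, a phosphate-responsive 1 family gene singled out after its values were seen, was at 25.5, 27.1 and 37.0 CPM in CT, at 9.97, 18.7 and 8.38 CPM in WD, at 39.6, 39.9 and 51.5 CPM in HS, and at 11.9, 8.57 and 7.37 CPM in WD + HS.

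**Figure D2:**
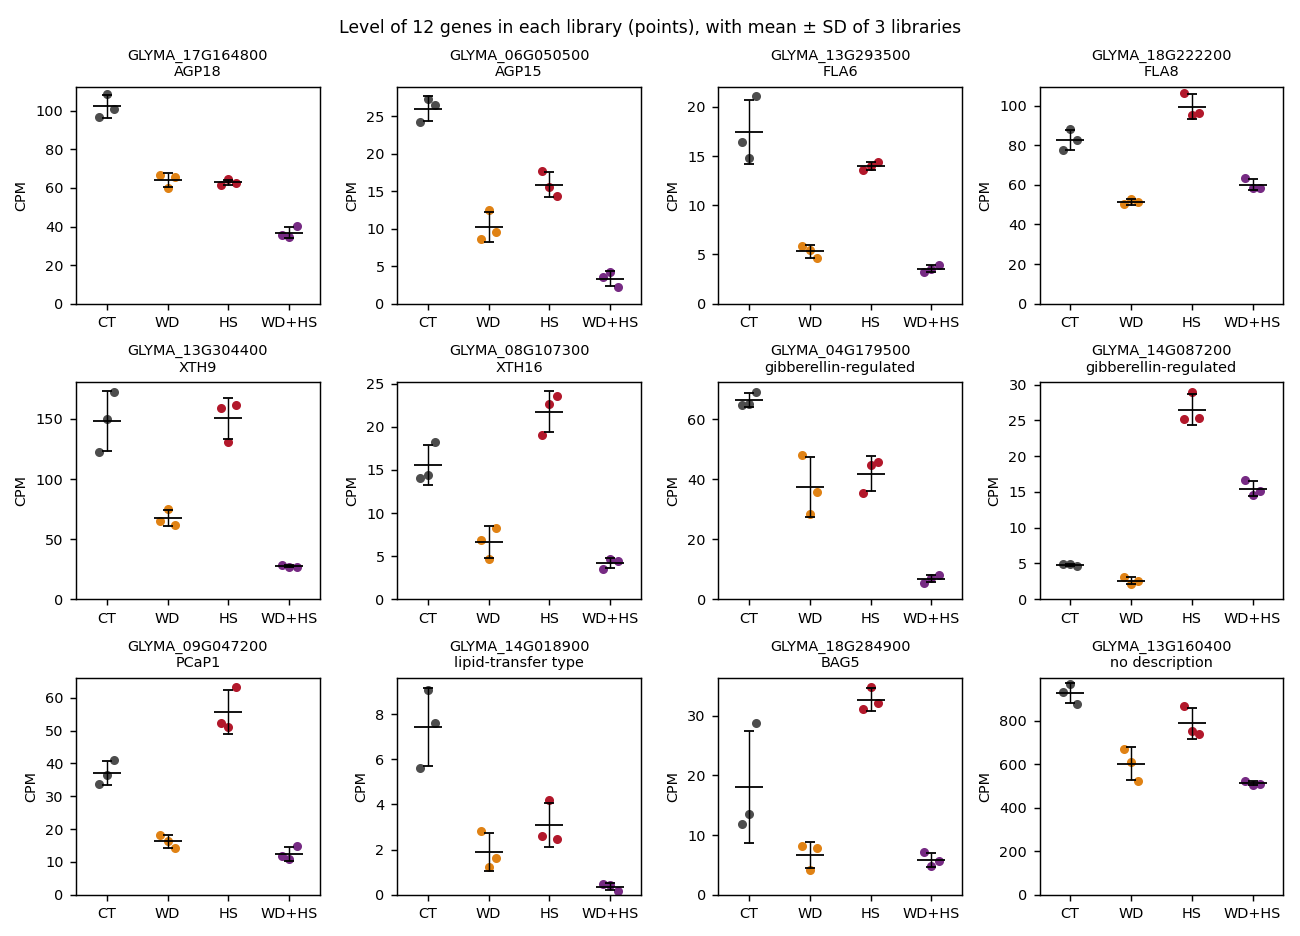
CPM of 12 of the genes in each library (points), with the mean and SD of the 3 libraries of each group as a bar with whiskers; the vertical axes start at 0 and differ between panels. XTH9 and the first gibberellin-regulated gene were lowest in WD + HS, FLA8 was lowest in WD, and GLYMA_14G087200 was highest in the heated groups.

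Other wall and secreted proteins in the set were named only once or in small groups. GLYMA_17G012300, described as SKU5 similar 4, a relative of the Arabidopsis multicopper oxidase-like protein SKU5 of growing roots, was at 121, 122.9 and 136 CPM in CT, at 86.3, 79.6 and 77.4 CPM in WD, at 79.5, 76.0 and 77.4 CPM in HS, and at 54.3, 50.01 and 50.1 CPM in WD + HS. As for AGP18, either stress alone left it at a similar level and both together left it lower, at 40.7% of CT. GLYMA_18G116400, a pectin lyase-like protein of the kind that acts on wall pectin, went from 53.2 ± 3.76 CPM in CT to 32.7 ± 5.51 CPM in WD and from 40.6 ± 1.24 CPM in HS to 17.2 ± 1.92 CPM in WD + HS (mean ± SD, n = 3). GLYMA_07G205200, described as TRICHOME BIREFRINGENCE-LIKE 38 of a family that acetylates wall polysaccharides, went from 9.63 ± 1.40 to 4.54 ± 0.724 CPM and from 11.0 ± 1.17 to 4.41 ± 0.0569 CPM in the same comparisons. The set also held a GDSL-like lipase (GLYMA_13G223000), a class III peroxidase (GLYMA_07G237400) and a chitinase A (GLYMA_20G164900), each with a higher mean in HS than in CT. These genes of single mention were chosen after their values were seen, except SKU5 similar 4.

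The lipid-transfer type proteins, small secreted proteins that bind lipids, included some of the deepest falls of the set at 28°C. GLYMA_14G018900 was at 5.61, 9.06 and 7.62 CPM in CT, at 2.85, 1.24 and 1.61 CPM in WD, at 2.62, 4.21 and 2.47 CPM in HS, and at 0.490, 0.421 and 0.181 CPM in WD + HS. GLYMA_15G119200 was at 5.999, 6.29 and 7.12 CPM in CT, at 2.99, 1.08 and 1.34 CPM in WD, at 1.59, 1.58 and 5.04 CPM in HS, and at 0.429, 0.421 and 0.181 CPM in WD + HS. Both had as few as 3 reads in a WD + HS library, both were lower in every HS library than in any CT library, and they were left with 25.6% and 27.8% of their CT levels in WD. The third, GLYMA_20G062700, was abundant and was lowered less, with 70.8, 59.7 and 63.3 CPM in CT, 41.6, 32.0 and 32.6 CPM in WD, 33.0, 39.3 and 38.7 CPM in HS, and 24.6, 19.2 and 23.0 CPM in WD + HS. Proteases were present in 3 forms. The aspartyl protease GLYMA_08G321400 was at 59.7, 44.9 and 63.6 CPM in CT, at 34.2, 31.1 and 32.8 CPM in WD, at 51.1, 59.1 and 56.9 CPM in HS, and at 18.1, 17.6 and 24.3 CPM in WD + HS, and a second one, GLYMA_02G100800, went from 23.3 ± 2.79 to 13.96 ± 0.626 CPM and from 15.1 ± 2.58 to 10.0 ± 0.132 CPM. The 2 neighbouring genes described as matrixins, the metalloproteinases of the extracellular matrix, differed in depth of fall: GLYMA_02G028200, singled out after its values were seen, was at 48.9, 27.9 and 54.1 CPM in CT, at 4.56, 20.1 and 17.2 CPM in WD, at 34.8, 37.4 and 40.6 CPM in HS, and at 3.62, 5.83 and 5.37 CPM in WD + HS. Its WD replicate 1 stood with the WD + HS libraries and apart from the other WD libraries. GLYMA_02G028100 kept 60.9% and 60.6% of its level, and neither fall was called, by edgeR or in any of 22 alternatives. The deepest fall of the set at 38°C was that of the cysteine proteinase GLYMA_07G205400, also singled out after its values were seen, from 5.17, 4.53 and 2.57 CPM in HS to 0.368, 0.211 and 0.362 CPM in WD + HS, with as few as 3 reads in a library.

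Membrane and signalling genes formed a further group. GLYMA_09G047200 is one of 2 genes described as plasma-membrane associated cation-binding protein 1 (PCaP1), which in Arabidopsis binds calcium and phosphoinositides at the plasma membrane. It was at 33.8, 36.4 and 41.0 CPM in CT, at 18.2, 16.5 and 14.1 CPM in WD, at 52.2, 51.2 and 63.4 CPM in HS, and at 11.7, 10.7 and 14.9 CPM in WD + HS. The other PCaP1 gene, GLYMA_15G154700, was at 45.6, 55.6 and 47.0 CPM in CT, at 34.9, 29.8 and 26.5 CPM in WD, at 65.2, 60.6 and 62.5 CPM in HS, and at 21.6, 20.6 and 23.3 CPM in WD + HS. Both were higher in each HS library than in any CT library, and the watered and dry libraries were farther apart at 38°C than at 28°C. The 2 genes described as N-MYC downregulated-like 1 (NDL1, a partner of the G protein beta subunit in Arabidopsis), singled out after their values were seen, had means without heat of 19.6 ± 2.24 CPM in CT and 11.2 ± 0.861 CPM in WD (GLYMA_20G223800) and of 14.4 ± 4.98 and 6.34 ± 1.76 CPM (GLYMA_10G161000). With heat the means were 16.7 ± 3.08 CPM in HS and 4.46 ± 1.07 CPM in WD + HS for the first and 10.7 ± 1.15 and 3.42 ± 0.609 CPM for the second. Neither gene separated HS from CT.

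The 4 receptor-like kinases were all sparse. The cysteine-rich kinase GLYMA_20G138800 was at 8.28, 7.36 and 10.6 CPM in CT, at 1.92, 3.498 and 4.22 CPM in WD, at 5.97, 6.06 and 6.75 CPM in HS, and at 3.07, 1.62 and 1.81 CPM in WD + HS. The lectin kinase GLYMA_18G043500 was at 9.26, 8.34 and 8.23 CPM in CT, at 3.99, 4.90 and 5.29 CPM in WD, at 8.59, 10.3 and 10.5 CPM in HS, and at 6.07, 5.13 and 5.01 CPM in WD + HS. A second lectin kinase, GLYMA_17G218500, was lower under either stress and reached 0.481 ± 0.255 CPM in WD + HS from 3.54 ± 0.885 CPM in CT, whereas the S-locus lectin kinase GLYMA_13G303800 was lowest in WD, with 1.45 ± 0.696 CPM against 4.65 ± 0.590 CPM in CT and 2.35 ± 0.581 CPM in WD + HS. Further genes with signalling names, chosen after their values were seen, were ralf-like 32 (GLYMA_05G151400, of the secreted RALF peptides that alter growth), a SAUR-like auxin-responsive gene (GLYMA_09G073400), cyclic nucleotide gated channel 1 (GLYMA_19G255500) and cyclin p4;1 (GLYMA_18G247800). Their CT means ran from 5.28 to 10.5 CPM and 40.5% to 55.5% of that was left in WD.

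Stress-response names were few. Both genes described as BCL-2-associated athanogene 5 (BAG5), a member of a co-chaperone family that binds HSP70, lie 2 identifiers apart on chromosome 18. GLYMA_18G284900 (BAG5) was at 11.8, 13.5 and 28.9 CPM in CT, at 8.11, 4.14 and 7.77 CPM in WD, at 31.2, 34.8 and 32.1 CPM in HS, and at 7.11, 4.85 and 5.68 CPM in WD + HS. GLYMA_18G285100 (BAG5) was at 8.93, 9.95 and 35.1 CPM in CT, at 5.98, 2.96 and 4.89 CPM in WD, at 21.04, 22.4 and 21.002 CPM in HS, and at 4.72, 3.58 and 5.25 CPM in WD + HS. CT replicate 3 was more than 2 times as high as the other CT libraries for both genes, so that their CT means rest largely on it, and their WD + HS libraries were at the level of the WD libraries. The class B heat shock factor HSFB2A (GLYMA_10G237800), whose class acts as repressors in Arabidopsis, was at 7.69, 7.36 and 7.68 CPM in CT, at 4.77, 3.66 and 4.49 CPM in WD, at 13.2, 10.7 and 13.8 CPM in HS, and at 3.19, 5.62 and 2.35 CPM in WD + HS. CYP707A1 (GLYMA_01G153300), which breaks down abscisic acid, was the sparsest gene of the set in CT, at 2.28, 3.44 and 2.64 CPM, and was at 1.57, 0.646 and 1.54 CPM in WD, at 2.05, 1.79 and 2.17 CPM in HS, and at 0.613, 0.983 and 1.21 CPM in WD + HS. It had as few as 10 reads in a library. Neither its fall in WD against CT nor that in WD + HS against HS was called, by edgeR or in any of 22 alternatives. Its HS libraries lay below every CT library. For HSFB2A, the fall in WD against CT was not called by edgeR, while that in WD + HS against HS was. HSFB2A and CYP707A1 were singled out after their values were seen.

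The most abundant gene of all had no description. GLYMA_13G160400 was at 935, 970.2 and 878 CPM in CT, at 673, 612 and 522 CPM in WD, at 869, 756 and 741 CPM in HS, and at 525, 506 and 511 CPM in WD + HS. GLYMA_14G092500, also undescribed, was at 126, 128 and 125 CPM in CT, at 80.3, 79.97 and 74.7 CPM in WD, at 109.6, 102 and 96.6 CPM in HS, and at 51.9, 49.4 and 50.1 CPM in WD + HS. Per transcript length these 2 genes were close, with CT means of 278 and 257 FPKM (fragments scaled to transcript length and to the mapped fragments of the library, as the authors deposited them), ahead of AGP18 with 153 FPKM, GLYMA_06G185300 with 133 FPKM and XTH9 (GLYMA_13G304400) with 131 FPKM. A wide gap between watered and dry libraries also marked 3 sparse genes: GLYMA_02G060900 (4.49 ± 1.22 CPM in CT, 1.66 ± 0.515 in WD, 4.72 ± 0.598 in HS, 0.743 ± 0.421 in WD + HS), GLYMA_12G009200 (3.60 ± 0.102, 1.54 ± 0.306, 2.44 ± 0.688 and 0.356 ± 0.220 CPM) and the cupin GLYMA_19G102700 (9.18 ± 1.06, 3.88 ± 0.658, 12.9 ± 1.07 and 3.26 ± 0.641 CPM). The fall of GLYMA_12G009200 in WD against CT was not called by edgeR. This gene had as few as 3 reads in a WD + HS library, and GLYMA_02G060900 as few as 4. In all, 13 of the 80 genes had a CT mean of at least 50 CPM and 37 had one under 10 CPM. The 3 genes of the DUF538 family of unknown function, singled out after their values were seen, kept 56.8% to 72.4% of their level in WD. In WD + HS they kept 38.3% to 54.8% of their HS level.

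A few metabolic and transport genes, also singled out after their values were seen, were also in the set. The vacuolar aquaporin TIP1;3 (GLYMA_10G290600), known from pollen in Arabidopsis, was at 4.83, 2.94 and 3.68 CPM in CT, at 0.712, 1.72 and 1.21 CPM in WD, at 5.91, 4.42 and 5.14 CPM in HS, and at 1.23, 2.32 and 1.09 CPM in WD + HS. It was left with 31.8% of its level at 28°C and 29.9% at 38°C. Jasmonic acid carboxyl methyltransferase (GLYMA_14G072300), which makes methyl jasmonate, went from 7.45 ± 0.599 to 3.46 ± 0.642 CPM at 28°C and from 4.53 ± 1.09 to 2.14 ± 0.389 CPM at 38°C. PLANT CADMIUM RESISTANCE 2 (GLYMA_05G236300), a metal transporter in Arabidopsis, went from 26.8 ± 2.93 to 14.2 ± 2.38 CPM and from 26.0 ± 1.27 to 10.5 ± 0.899 CPM, and a glyoxalase I-type gene (GLYMA_12G167400), whose enzyme class detoxifies methylglyoxal, from 29.8 ± 2.22 to 18.6 ± 2.03 CPM and from 28.4 ± 5.43 to 13.1 ± 2.04 CPM. Heat alone left the last 2 near their CT level. The 15 undescribed genes not named so far had CT means of 3.09 to 28.3 CPM, and 38.4% to 66.2% of that was left in WD, while 16.3% to 59.3% of their HS level was left in WD + HS. Their HS means were 71.1% to 162% of CT. The 5 remaining described genes, a SEC14 cytosolic factor, the DUF1005 and DUF1442 proteins, downstream target of AGL15 2 and a methyltransferase, kept 33.0% to 69.1% of their level in WD and 40.7% to 60.4% in WD + HS relative to HS.

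The rule bounded the effect of heat alone only from below, and the genes spread widely in it. All 3 HS libraries lay above the CT libraries for 19 genes, below them for 30 and among them for 31, beside 24.7% of all genes tested above and 21.2% below. By edgeR 15 genes were called higher in HS than in CT and 22 lower, beside 15.9% and 16.0% of all genes tested, and the median log2 fold change was -0.09. The count of 15 was 6 without CT replicate 1 and 9 without CT replicate 2, HS replicate 2 or HS replicate 3. At the upper end, with all HS libraries above CT, were GLYMA_14G087200, the glycolytic enzyme GAPC2 (GLYMA_05G073100), a polyketide cyclase-like gene (GLYMA_14G056300) and a transporter of the nodulin MtN21 type (GLYMA_06G123200), of which the last 3 were singled out after their values were seen. The polyketide cyclase-like gene was at 3.13, 3.84 and 5.65 CPM in CT and at 9.55, 11.3 and 12.3 CPM in HS, but at 1.85, 0.753 and 0.938 CPM in WD and at 1.41, 0.562 and 1.81 CPM in WD + HS, so that its watered libraries differed with heat while its dry libraries overlapped. At the lower end were the 2 sparse lipid-transfer genes, xyloglucan endotransglycosylase 6 and the lectin kinase GLYMA_17G218500, with HS means of 41.7% to 43.8% of CT.

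**Figure D3:**
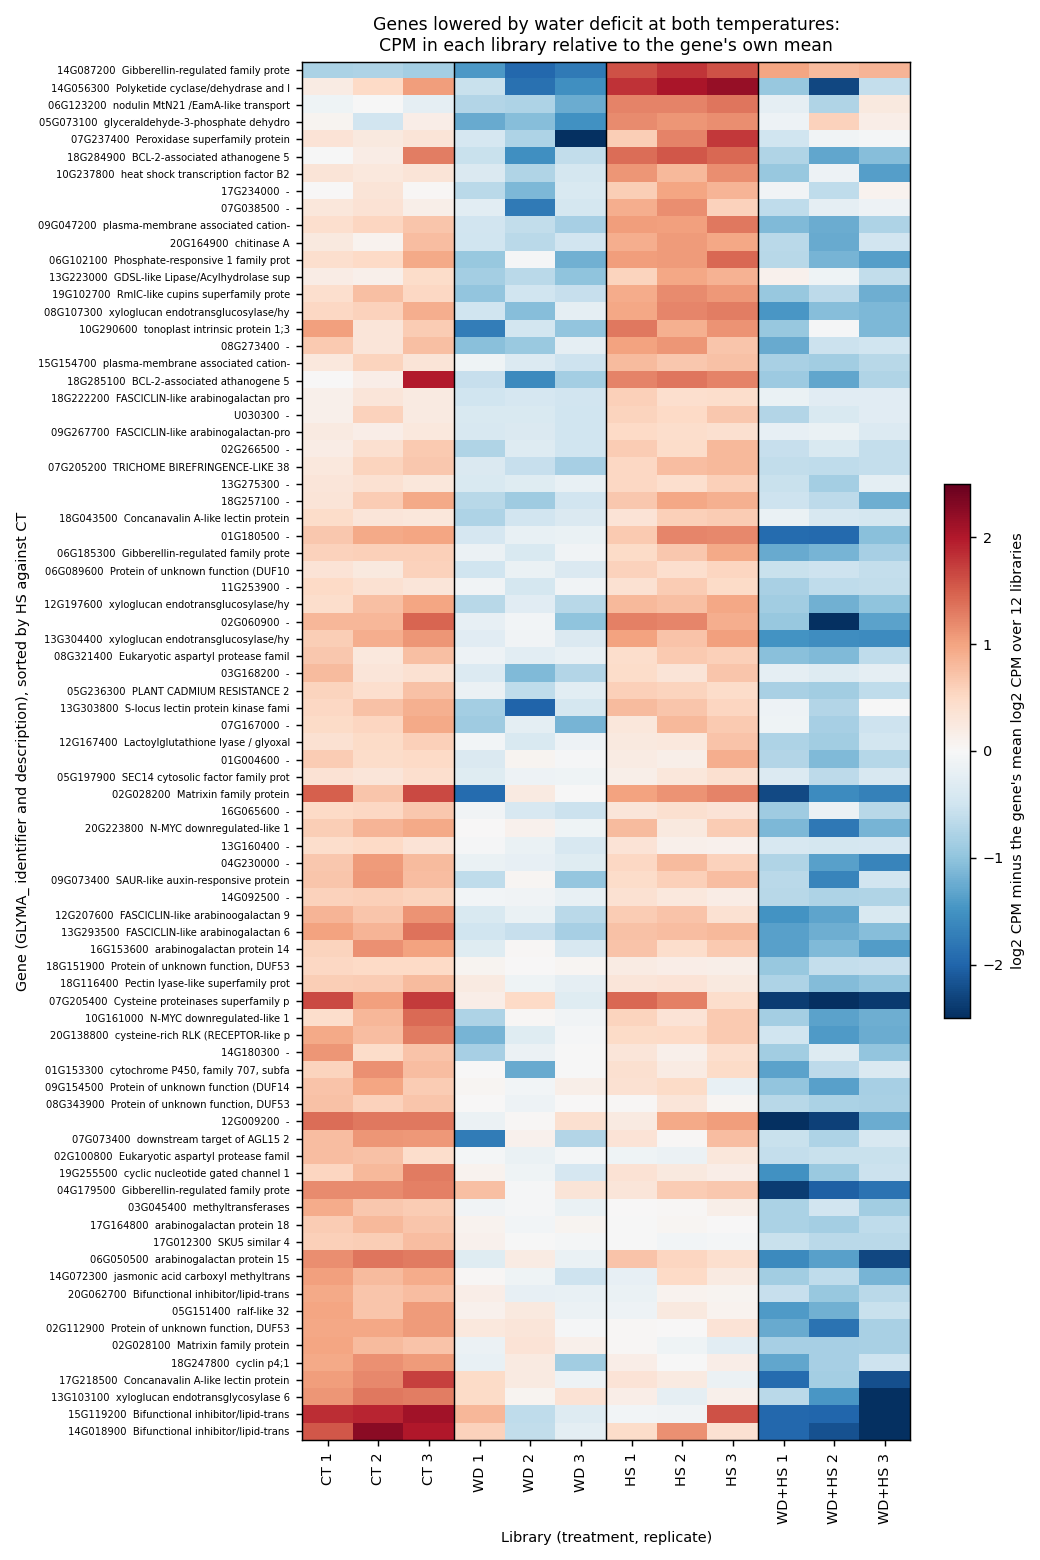
Each row is one of the 80 genes and each column one of the 12 libraries; the colour is log2 CPM minus the gene's own mean, red for above and blue for below, and rows are ordered by HS against CT. The WD and WD + HS columns are mostly blue because of how the genes were chosen, and the HS columns pass from red at the top to pale at the bottom.

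The rule never set WD + HS beside WD, but both groups had to be low for a gene to be chosen. The comparison of these 2 dry groups is therefore given as a description. Its adjusted p-values, and the shares of all genes set beside it, take no account of that choice. In edgeR's test 41 of the 80 genes (51.2%) were lower in WD + HS than in WD, beside 16.4% of all genes tested, and 4 (5.0%) were higher, beside 13.7% of all genes tested. Among the genes tested with a lowest CT level of at least 2 CPM the shares were 19.1% and 15.3%. In CPM, all 3 WD + HS libraries lay below the WD libraries for 41 genes, above them for 6 and among them for 33, beside 21.2% of all genes tested below and 20.4% above. The median log2 fold change was -0.48 over the 80 genes and 0.01 over all genes tested.

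By family, AGP18, AGP15 and AGP14 were each lower in WD + HS than in WD, with log2 fold changes of -0.79 ± 0.08, -1.64 ± 0.20 and -1.08 ± 0.18 (± SE, edgeR's test, adjusted p = 4.75e-07, 2.52e-06 and 0.000125). These p-values, and those that follow, take no account of how the genes were chosen. All 4 xyloglucan enzymes of the set were lower too, by edgeR's test. The changes were -1.66 ± 0.28 for xyloglucan endotransglycosylase 6 (edgeR adjusted p = 0.000104) and -1.31 ± 0.12 for GLYMA_13G304400 (edgeR adjusted p = 4.98e-08). They were -0.64 ± 0.20 for XTH16 (edgeR adjusted p = 0.0174) and -0.48 ± 0.14 for GLYMA_12G197600 (edgeR adjusted p = 0.0103). The GLYMA_12G197600 call was lost in 6 of 22 alternatives (adjusted p from 0.00186 to 0.0921), among them all 3 limma-trend fits and the edgeR fits without WD replicate 2 or WD + HS replicate 2. That of XTH16 was lost in 3 (edgeR adjusted p up to 0.122), among them the fits without WD replicate 3 or WD + HS replicate 1. The fasciclin-like genes divided: FLA6 was lower (-0.59 ± 0.18, edgeR adjusted p = 0.0181), FLA9 was not called (-0.59 ± 0.23, adjusted p = 0.0584), FLA10 was not called (0.19 ± 0.08, adjusted p = 0.0759) and FLA8 was higher (0.23 ± 0.08, adjusted p = 0.0468). The call of FLA6 was lost without WD replicate 1 or 2 or WD + HS replicate 1 or 2 (edgeR adjusted p up to 0.0760), and that of FLA8 in 14 of 22 alternatives (adjusted p up to 0.205), 8 of them fits without 1 library. The gibberellin-regulated genes were called in both directions. GLYMA_04G179500 was lower by a log2 fold change of -2.44 ± 0.16 (edgeR adjusted p = 1.02e-09) and GLYMA_06G185300 by -0.86 ± 0.12 (adjusted p = 1.5e-05), whereas GLYMA_14G087200 was higher by 2.59 ± 0.16 (adjusted p = 3.21e-10). Over all described genes tested, the members of the set included, the families did not share 1 direction. Of 10 arabinogalactan proteins 5 were called lower and 0 higher, and of 10 fasciclin-like genes 6 lower and 1 higher. Of 25 xyloglucan enzymes 13 were lower and 5 higher, and of 10 gibberellin-regulated peptides 2 lower and 4 higher. The shares of all genes tested were 16.4% lower and 13.7% higher.

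The cysteine proteinase GLYMA_07G205400 had the lowest value, -2.73 ± 0.44 (edgeR adjusted p = 7.18e-05). The 2 sparse lipid-transfer genes were both at -2.35 (SE 0.46 and 0.57, edgeR adjusted p = 0.000491 and 0.00315). The other genes called higher were GAPC2, at 1.49 ± 0.19 (edgeR adjusted p = 3.94e-06), and the GDSL-like lipase, at 0.66 ± 0.21 (edgeR adjusted p = 0.0197). The call of the lipase was lost in 7 of 22 alternatives (adjusted p up to 0.126 with edgeR or limma-trend), among them the fits without WD replicate 3, WD + HS replicate 1 or WD + HS replicate 2. Both had been chosen after their values were seen. GAPC2 was at 13.8, 9.37 and 14.8 CPM in CT, at 5.48, 6.24 and 4.62 CPM in WD, at 29.7, 28.3 and 29.4 CPM in HS, and at 12.0, 19.6 and 14.7 CPM in WD + HS. Its dry flowers at 38°C were thus at the CT level, between 9.37 and 19.6 CPM in both groups. Genes not called included both BAG5 genes (-0.16 ± 0.29 and 0.00 ± 0.38, edgeR adjusted p = 0.725 and 1), HSFB2A (-0.22 ± 0.25, adjusted p = 0.546), CYP707A1 (-0.40 ± 0.43, adjusted p = 0.527) and the polyketide cyclase-like gene (0.15 ± 0.40, adjusted p = 0.819).

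**Figure D4:**
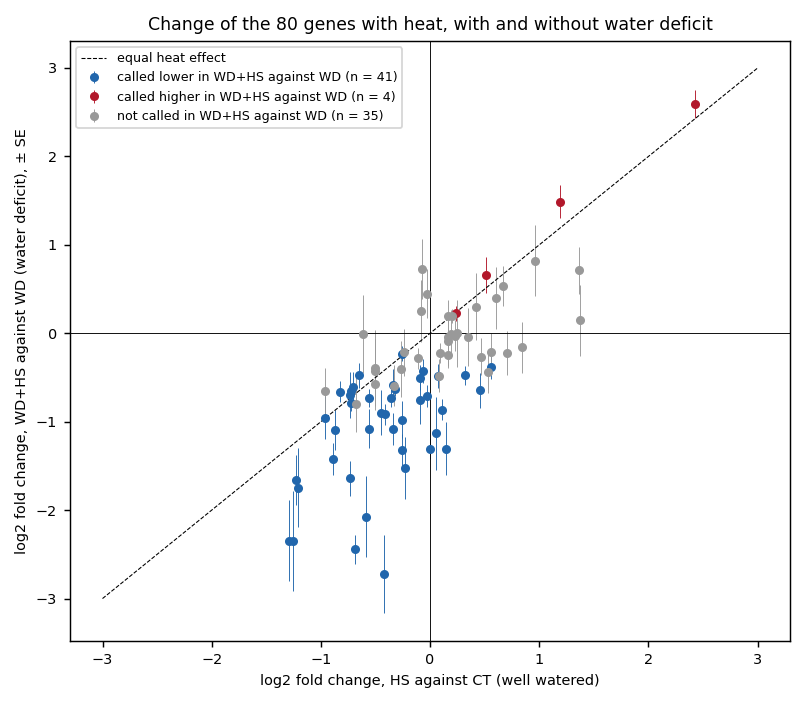
Log2 fold change with heat in watered flowers (HS against CT, horizontal) and in dry flowers (WD + HS against WD, vertical, with SE) of the 80 genes, coloured by the call in the dry flowers; the dashed line marks equal effects. Of the 80 genes, 41 were called lower and 4 higher in the dry flowers, and 61 lie below the dashed line.

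Of the 22 genes called lower with heat in watered flowers, 21 were also called lower in WD + HS against WD, beside 62.4% of all genes called lower in HS against CT. Of the 15 called higher in watered flowers, 4 were called higher and 3 lower, beside 57.0% and 0.886% of all genes called higher in HS against CT. The 3 were XTH16 and both PCaP1 genes, and the call of the PCaP1 gene GLYMA_09G047200 was lost without WD replicate 1 or 2 or WD + HS replicate 1 or 2 (edgeR adjusted p up to 0.165). Of the 43 not called in watered flowers, 17 were called lower, beside 9.28% of all genes not called in HS against CT. These comparisons were not read further, since the rule's falls at 28°C and 38°C link them: the fall was larger at 38°C than at 28°C for 61 of the 80 genes and smaller for 19. In the same edgeR fit, 10 genes were called for a larger fall at 38°C, beside 2.45% of all genes tested with an interaction in that direction. For a smaller fall at 38°C the count was 0, beside 0.497% of all genes tested, with 0 at an unadjusted p under 0.05 and 0 by DESeq2 and by limma. Both parts of this contrast were used to choose the genes.

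At the edge of the rule, GLYMA_02G028100 (matrixin) and GLYMA_15G154700 (PCaP1) were just inside, with lowest CT over highest WD ratios of 1.302 and 1.304. Just outside were GLYMA_05G102100, a second gene described as AGP18, and the undescribed GLYMA_13G299800, with ratios of 1.2996 and 1.2992. The second AGP18 gene ranged from 97.4 to 118 CPM in CT, from 64.3 to 74.9 CPM in WD, from 101.01 to 108 CPM in HS and from 55.7 to 61.0 CPM in WD + HS. Unlike those of AGP18 in the set, its CT and HS libraries overlapped.

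What the rule did not use was where the genes lie and how they are named. By their identifiers they were spread over all 20 chromosomes, with the most, 8, on chromosome 18. Within 2 identifier places of each other lay 3 pairs: the matrixins, the BAG5 genes, and TRICHOME BIREFRINGENCE-LIKE 38 with the cysteine proteinase GLYMA_07G205400. In all, 23 of the genes shared 10 descriptions, each held by 2 or 3 genes. Soybean carries many recent gene duplicates, and reads of near-identical copies may have been split between them in a way the sources used here do not state.

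Counted over all described genes of the same families, the members of the set included, not all followed. Members made up 4 of the fasciclin-like genes, 3 of the arabinogalactan proteins and 4 of the xyloglucan enzymes. They made up 3 each of the gibberellin-regulated and lipid-transfer genes, 4 of the receptor-like kinases and 2 each of the aspartyl proteases and chaperones. The phosphate-responsive genes and aquaporins held 1 each. The rule had fixed the direction of all these members. Of all genes tested, 0.682% were called lower in WD than in CT by edgeR and 5.94% lower in WD + HS than in HS. Of 10 described fasciclin-like genes, 9 were called lower in each of these comparisons, and of 10 arabinogalactan proteins 8 and 6 were. For the 25 xyloglucan enzymes tested the counts were 6 and 12. Of 10 gibberellin-regulated peptides, 5 were called lower and 1 higher in each comparison. Of 21 lipid-transfer genes tested, 6 were lower in WD, and at 38°C 7 were lower and 1 higher. Tubulins, of the microtubules that guide wall deposition, were lower for 2 of 3 genes in WD and for 3 of 3 at 38°C without giving a member. Other wall lists were mixed. Of 9 cellulose synthase and COBRA genes, 0 were called lower and 1 higher in WD, and 1 lower and 1 higher at 38°C. Of 29 wall glycosyl hydrolases tested the counts were 2 and 2 in WD and 5 and 3 at 38°C. Neither list gave a member. Of 38 pectin enzymes and inhibitors tested, with 1 member, they were 5 and 2 in WD and 10 and 3 at 38°C. Of 8 genes of the phosphate-responsive family 3 and 5 were called lower, of 14 aquaporins 3 and 6, and of 62 receptor-like kinases tested 9 and 19, with 1 aquaporin higher at 38°C and 2 kinases higher in WD. Of 14 aspartyl proteases tested, 3 were called lower and 1 higher in WD, and 3 lower and 2 higher at 38°C, and of 37 HSP70, HSP90 and HSP101 chaperones and co-chaperones, the list of the BAG5 genes, 5 and 23 were called lower. Expansins, which loosen walls without cutting them, gave no member: of 9, 2 were called lower and 4 higher in WD, and at 38°C 5 were called higher, beside 0.937% and 3.21% of all genes tested called higher in those comparisons. These families can be seen only where the study's own lists describe a gene, so they hold mainly genes that changed.

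Markers of flower parts were set beside the falls. Summed over 8 photosynthetic light-harvesting genes, the level ran from 66.0 to 96.4 CPM in CT and from 67.6 to 85.2 CPM in WD, and from 86.4 to 99.1 CPM in HS and from 86.7 to 144.9 CPM in WD + HS. Summed over 4 described pollen and anther genes, of which 3 were tested, it ran from 47.0 to 51.04, from 46.0 to 58.0, from 50.1 to 52.7 and from 55.6 to 59.0 CPM in the same order. Over 9 seed and embryo genes it ran from 69.6 to 77.8, from 65.2 to 81.4, from 68.3 to 69.8 and from 47.2 to 53.5 CPM. The seed and embryo sum was thus lower in WD + HS than in HS with no overlap, while at 28°C it overlapped. By edgeR, 2 of the 9 genes were called lower and 0 higher in WD + HS against HS, with a median log2 fold change of -0.29. In WD against CT 1 was called lower and 0 higher, with a median of 0.43. Of all genes tested, 5.94% and 0.682% were called lower in these 2 comparisons. Over 5 flower MADS-box genes, added after the data were seen, the sum ran from 39.1 to 49.0 CPM in CT, from 38.3 to 61.8 CPM in WD, from 10.1 to 14.3 CPM in HS and from 28.1 to 36.5 CPM in WD + HS, higher in dry than in watered flowers at 38°C. The 1 guard cell gene described ran from 1.78 to 3.66 CPM in CT and from 2.31 to 2.55 CPM in WD, and from 6.40 to 7.48 CPM in HS and from 3.74 to 8.39 CPM in WD + HS. These sums hide genes that went opposite ways with heat. By edgeR, 2 light-harvesting genes were called lower and 2 higher in HS against CT, and 1 lower and 3 higher in WD + HS against WD. Of the 3 pollen and anther genes tested, 1 was lower and 2 higher, and then 1 and 1. With water deficit, 0 light-harvesting genes were called at either temperature, and 1 pollen and anther gene was called, higher in WD + HS than in HS. No marker list had a gene at 0 in all libraries. The part of these shifts in the falls of the 80 genes was not tested.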

How the data were processed

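Per the paper's methods, reads were cleaned with Trim Galore and FastQC and aligned with HISAT2 (version 2.2.1 in the submitters' processing notes) to the Ensembl Plants soybean genome. The authors deposited raw read counts per gene, unscaled, for all 12 libraries; the counting program is not given in the sources used here. The deposited FPKM values come from Cufflinks, run by the authors on single libraries. Libraries were assigned by column name. CPM in the text is a gene's count over its column sum, with no further factor.

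The count test was edgeR 4.0.16 (R 4.3.3): genes were kept by filterByExpr (minimum count 10), libraries were scaled by TMM (factors 0.979 to 1.03), and 1 quasi-likelihood fit of the 4 group means, with no replicate block, served all contrasts. Adjustment was by Benjamini-Hochberg over 38410 genes, the 80 genes included, and a call needed an adjusted p under 0.05 and no minimum change. An SE is the size of the fitted change over the root of its F statistic. The fit was also run on simulated counts in which randomly drawn genes were lowered in WD + HS. Those genes were not chosen by the rule, so that run cannot speak to p-values of genes chosen by it.

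The rule, the members and the lists of families were chosen with earlier results of these data known. Genes were named where they had 1 of the 8 highest mean CT levels, 1 of the 8 widest gaps between watered and dry libraries, belonged to a list with at least 2 members, or lay at the edge of the rule. Other names were chosen after their values were seen and are marked so, with few exceptions. These are the remaining described genes, given to complete the set, and the undescribed GLYMA_01G180500 and GLYMA_07G167000, given for their results. Lists were made by words in the descriptions of the study's supplementary lists, which cover 2420 of the genes tested, since 0 identifiers matched the gene table of the reference, and no sequence or coordinate is given. Those lists also hold the authors' own fold changes and tests, of which no value was used.

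The alternatives tried were DESeq2 1.42.0; other scaling (upper quartile, or plain library size); other filters (none beyond 1 count, or 10 counts required in each library); the replicate number as a block; limma 3.58.1 (limma-trend) on log2 FPKM with a pseudocount of 1 or 0.1, for genes reaching 1 FPKM in 3 libraries or for all genes; leaving out single libraries; and requiring an absolute log2 change of 1.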

Additional observations from a re-analysis of the deposited data

Results flagged for a closer look

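For 10 of the 80 genes, the log2 change with water deficit was more negative at 38°C than at 28°C and the interaction term of the edgeR fit passed an adjusted p of 0.05. Both parts of that contrast were used to choose the genes, so their values carry no test here and are given as a description. Each value is the change in heated flowers (WD + HS against HS) minus the change at 28°C (WD against CT), both as log2 fold changes.

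Among the wall and growth genes it was -1.76 for the gibberellin-regulated GLYMA_04G179500 and -0.97 for its relative GLYMA_06G185300. It was -1.31 for XTH9 (GLYMA_13G304400) and -1.10 for XTH16 (GLYMA_08G107300). XTH9 went from -1.12 without heat to -2.42 with heat, and the gibberellin-regulated GLYMA_04G179500 from -0.82 to -2.58.

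At the membrane, the value was -0.95 for the PCaP1 gene GLYMA_09G047200, -0.79 for the PCaP1 gene GLYMA_15G154700 and -1.07 for the NDL1 gene GLYMA_20G223800. The proteases gave -0.68 for the aspartyl protease GLYMA_08G321400 and -2.30 for the cysteine proteinase GLYMA_07G205400, the latter on as few as 3 reads in a library. The undescribed GLYMA_01G180500 gave -1.45. Without CT replicate 1, or without CT replicate 2, the number of such genes was 6.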

How the results depend on the processing

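In WD + HS against WD, 12 of the 45 called genes kept their call under all 22 alternatives and 4 more under the 21 in which they could be tested. A minimum absolute log2 fold change of 1 left 17 genes lower and 2 higher, and the call of FLA8 was lost in 14 alternatives, that of GLYMA_13G160400 in 13 and that of the GDSL-like lipase in 7. The same minimum left 34 genes lower in WD against CT, 4 lower and 4 higher in HS against CT, and 6 with an interaction. Limma-trend called 24 genes lower in WD against CT on log2(FPKM + 1), 22 on log2(FPKM + 0.1) and 7 without a filter, and without a filter it called 0 with an interaction, with 32 at an unadjusted p under 0.05; the cause was not tested. The undescribed GLYMA_07G167000 turned from -0.09 in HS against CT to 0.39 on log2(FPKM + 1), with and without a filter, and to 0.46 on log2(FPKM + 0.1). The rule gave 25 genes at a ratio of 1.5, 2 at a ratio of 2 and 42 on the FPKM values, 28 of them shared with the 80.

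Leaving out each library, the counts ranged from 33 to 41 lower and 2 to 4 higher in WD + HS against WD (2 without WD + HS replicate 1), from 45 to 64 lower in WD against CT, from 67 to 75 lower in WD + HS against HS, from 18 to 22 lower and 6 to 16 higher in HS against CT (6 without CT replicate 1, 9 without CT replicate 2, HS replicate 2 or HS replicate 3) and from 6 to 13 with an interaction. The rule itself then gave 84 to 157 genes (128 without CT replicate 1, 157 without WD replicate 1, 131 without WD replicate 2), as fewer libraries must stay apart.

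Replicate numbers did not pair the libraries: the deviations of same-numbered libraries correlated from -0.149 to 0.111, over 0.1 in 1 of 18 pairs, and 5 of 12 libraries were closest to their own number. With the replicate block, 38 genes were lower and 3 higher in WD + HS against WD, 58 lower in WD against CT, 73 lower in WD + HS against HS, 22 lower and 13 higher in HS against CT, and 10 had an interaction. Depth limits the 37 genes under 10 CPM in CT most.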
